A study of Mus musculus with 8 samples.

Results

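The comparison described here sets pancreatic buds that carry a VEGF transgene against buds of littermates without it, in mouse embryos at e12.5. It was taken from the titles of the arrays: the arrays titled Pdx1-tTA; TET-VEGF, first and technical repeat (TR), against those titled Pdx1-tTA, first and TR. That is 4 of the 8 arrays of the series, and the difference is described over the 19938 genes that had a probe set with 1 gene symbol. Both pools were made from fresh, uncultured buds. In the VEGF pool were buds of 3 embryos with both Pdx1-tTA and TET-VEGF, and the control pool held buds of 3 littermate embryos with Pdx1-tTA alone, so the transactivator is present in both pools and only the VEGF transgene differs by label. The Pdx1 promoter limits the transactivator to cells that use this promoter, chiefly the bud epithelium. Whether a tetracycline was given to hold the transgene off until some stage is not stated in the sources used here. The other 4 arrays hold explants of wild type buds of the same stage, cultured for 2 days with VEGFR2i or with vehicle, 5 in each pool.

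VEGF is a secreted protein that makes endothelial cells divide, migrate and survive, and endothelial cells read it through the receptor tyrosine kinases Flt1 and Kdr. A tTA transactivator drives genes placed behind tetracycline operator sites, so a TET transgene is made where tTA is made, here in the epithelium that will form ducts, acini and islets. At this stage the bud is a branching epithelium within mesenchyme, and its first endocrine cells arise when single epithelial cells switch on the transcription factor Neurog3. Vessels that reach the bud bring red cells and platelets with them and lie next to the epithelium.

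Each condition was 1 pool of RNA read on 2 arrays. The arrays of a pool measure hybridization error and not the spread between embryos, so no test of the transgene can be made, and the values below compare a pool with a pool. Values are log2 levels after RMA, the multi-array summary that the submitters applied. Arrays of the same pool correlated at 0.997 (VEGF) and 0.998 (control) across probe sets, and arrays of different pools at 0.996. A gene is called higher or lower where the pool means were at least 1.5-fold apart and the arrays of the pools did not overlap. Between arrays of the same pool, 10 genes differed by 1.5-fold in the VEGF pool and 6 in the control pool.

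Promoters of 4 genes that the results turn on are shown first, from 250 bases before to 50 bases after the annotated start, in the letters of RefSeq's build GRCm38.p6. Rhag stands for the red cell genes higher in the VEGF pool, Esm1 for the endothelial genes higher there, and Gcg and Chga for the endocrine genes lower there. Capitals mark GATAAG in Rhag, where it lies on the other strand and so appears as its reverse complement. In Esm1 and Gcg they mark the E-box CAGATG. In Chga they mark TGACGTNA, where N is any base. These are the words read by GATA factors, by basic helix-loop-helix factors such as Neurog3 and Neurod1, and by cyclic AMP response factors. The genes and motifs were chosen after the values were seen.
Rhag, chr17:40810899-40811198, plus strand: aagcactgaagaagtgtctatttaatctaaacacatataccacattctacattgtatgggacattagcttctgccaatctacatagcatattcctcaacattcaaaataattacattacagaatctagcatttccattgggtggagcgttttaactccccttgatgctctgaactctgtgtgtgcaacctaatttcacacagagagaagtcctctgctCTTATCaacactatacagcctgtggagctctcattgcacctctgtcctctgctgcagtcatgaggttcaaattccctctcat
Esm1, chr13:113209409-113209708, plus strand: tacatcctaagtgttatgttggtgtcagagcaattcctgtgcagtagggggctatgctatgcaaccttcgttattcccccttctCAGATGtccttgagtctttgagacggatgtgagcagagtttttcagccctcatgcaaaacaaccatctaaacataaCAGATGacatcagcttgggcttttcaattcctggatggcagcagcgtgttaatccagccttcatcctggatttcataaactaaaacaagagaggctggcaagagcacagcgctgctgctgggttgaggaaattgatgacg
Gcg, chr2:62483604-62483903, minus strand: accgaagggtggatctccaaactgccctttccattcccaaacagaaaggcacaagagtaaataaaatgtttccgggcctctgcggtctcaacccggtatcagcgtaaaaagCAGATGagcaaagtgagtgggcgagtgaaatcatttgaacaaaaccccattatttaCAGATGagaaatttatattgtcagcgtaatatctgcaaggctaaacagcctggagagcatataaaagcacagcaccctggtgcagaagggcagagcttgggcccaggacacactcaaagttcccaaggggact
Chga, chr12:102554691-102554990, plus strand: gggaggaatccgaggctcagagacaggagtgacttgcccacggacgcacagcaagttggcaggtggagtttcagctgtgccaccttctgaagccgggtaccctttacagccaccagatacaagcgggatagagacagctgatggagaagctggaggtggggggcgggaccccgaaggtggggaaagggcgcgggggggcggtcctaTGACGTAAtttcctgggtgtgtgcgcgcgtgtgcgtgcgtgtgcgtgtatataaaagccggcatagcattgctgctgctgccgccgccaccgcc

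Both strands of every available promoter of this length were searched, which gave a window for 82 of the 110 genes called higher, 141 of the 186 called lower and 15614 of all genes described. GATAAG occurred in 18.3% of the promoters of genes called higher, in 6.38% of those called lower and in 7.63% of all. The E-box CAGGTG occurred in 12.2% of the promoters of higher genes, 36.9% of those of lower genes and 22.2% of all. The related E-box CAGATG occurred in 14.6%, 20.6% and 16.1%, in the same order. TGACGTNA was found in 2.44% of higher, 5.67% of lower and 4.23% of all promoters, and AGGAAG, the core word of ETS factors, in 41.5%, 35.5% and 36.9%. Esm1, higher in the VEGF pool, and Gcg, lower there, each hold 2 copies of CAGATG, so that word does not separate the genes shown. A GATAAG and an AGGAAG next to each other can share bases, and the E-boxes differ at 1 letter. A match describes the letters of the window and is not evidence of binding.

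The lists with the most calls in the VEGF pool were red cell (9 of 15 higher), mesothelial (8 of 18), endothelial surface (11 of 30) and platelet genes (5 of 15) on the higher side, and granins (10 of 17 lower), endocrine commitment factors (8 of 21), keratins and epithelial regulators (7 of 21) and epithelial adhesion genes (8 of 27) on the lower side. In all of these but the red cell and granin lists most members were not called. Of the 19938 genes, 110 (0.552%) were called higher and 186 (0.933%) lower, while the median difference over all genes was 0.00. The calls were modest in size, with a median of 0.73 among higher genes and -0.76 among lower genes, and 12 higher and 38 lower genes were at least 2-fold apart. The extremes of the named genes were the platelet chemokine Ppbp, 5.53-fold higher, and Neurog3, 6.19-fold lower. Dim genes yielded few calls: below a mean level of 4, 0.173% of 8072 genes were called, against 4.13% of the 1767 genes between 5 and 6 and 1.54% of the 390 genes at 10 or above. Arrays of the same pool lay closer together at high levels, with a median gap of 0.03 at 10 or above and of 0.11 (VEGF) and 0.09 (control) between 4 and 5.

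**Figure D1:**
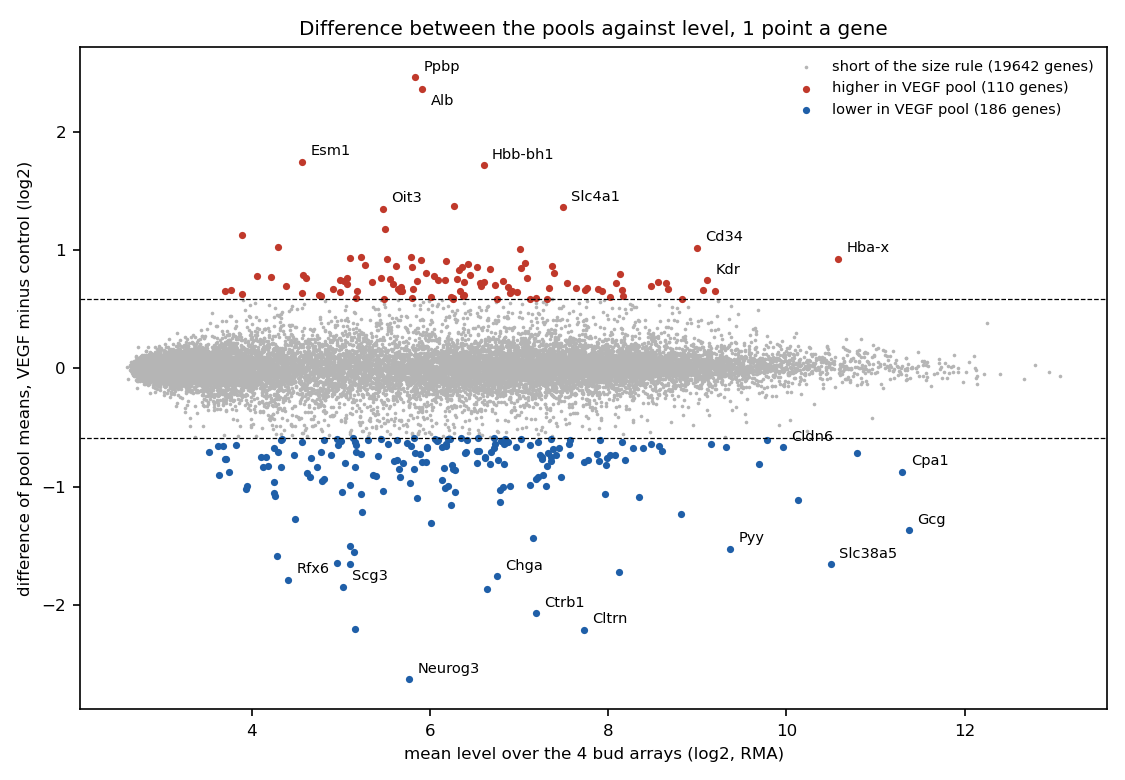
Difference between pool means (VEGF minus control, log2) against the mean level over the 4 bud arrays (log2), with 1 point for each of 19938 genes. Red points are the 110 genes called higher, blue points the 186 called lower, and dashed lines mark 1.5-fold; called genes occur from dim genes such as Rhag up to Gcg and Cpa1, near the top of the scale.

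**Figure D2:**
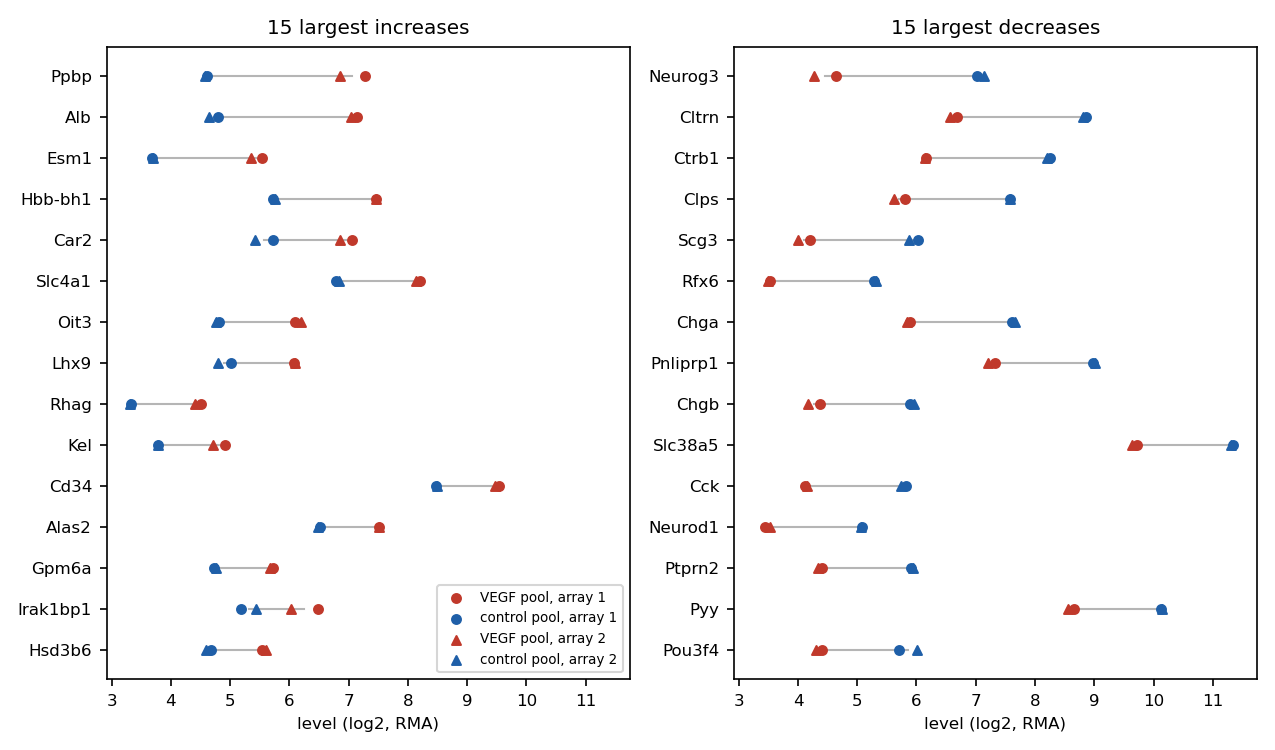
Levels (log2) of the 15 largest increases and the 15 largest decreases on each bud array, red for the VEGF pool and blue for the control pool, circles for the first array and triangles for the technical repeat; grey lines join the pool means. In every gene shown the arrays of the pools lie apart, as the size rule requires, with Irak1bp1 showing the widest scatter between arrays of the same pool.

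The transgene's own readout comes first. The Vegfa probe set stood at 7.67 and 7.73 on the VEGF arrays and at 7.62 and 7.25 on the control arrays, a difference of 0.27 with a range over array pairs of 0.06 to 0.48, and was not called. The arrays of the pools did not overlap, but one control array lay close to the VEGF arrays. The sources used here do not say whether TET-VEGF holds the bases that this probe set reads, so the value is no check of the genotype. Pdx1, the gene whose promoter drives tTA, read 6.50 and 6.26 on the VEGF arrays against 7.02 and 6.90, a 1.498-fold lower level that missed the threshold by a small margin. The receptors were higher. Kdr stood at 9.52 and 9.46 against 8.76 and 8.72 (difference 0.75), Flt1 at 7.51 and 7.52 against 6.61 and 6.63 (0.90), and Flt4, a receptor for VEGF-C, at 6.31 and 6.41 against 5.53 and 5.36 (0.92). These 3 of 10 ligands, receptors and neuropilins were called, none was lower, and the list's median was 0.30 against 0.00 over all genes. Neuropilins and the other ligands were not called: Nrp2 differed by 0.45, Vegfc by 0.32, Vegfd by 0.15, Nrp1 by 0.04 and Pgf, or placental growth factor, by -0.11.

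Endothelial cells make a set of junction and surface proteins, not all of which are limited to endothelium. Of 30 such genes, 11 were called higher and none lower, with a median of 0.52 and 28 of 30 differences above 0. Oit3, known from sinusoidal endothelium, led them at 6.09 and 6.20 against 4.82 and 4.77 (1.35). Cd34, a sialomucin of vessel walls and blood progenitors, stood at 9.55 and 9.46 against 8.48 and 8.49 (1.02). Plvap, the diaphragm protein of fenestrated capillaries, read 8.94 and 8.90 against 8.24 and 8.15 (0.73). In each of these genes both VEGF arrays lay above both control arrays, which the size rule requires of a called gene. The adherens junction cadherin Cdh5 (0.51) and the adhesion molecule Pecam1 (0.52), commonly used to mark all endothelium, had arrays that did not overlap but stayed below 1.5-fold, as did Cldn5 of endothelial tight junctions (0.46) and the angiopoietin receptor Tek (0.40). Members at the other end were the clotting factor Vwf at -0.10 and the scavenger receptors Stab1 at 0.02 and Stab2 at 0.21. Over Cdh5, Pecam1, Kdr and Erg, the linear signal summed to 1708 and 1676 on the VEGF arrays and 1111 and 1097.5 on the control arrays, a ratio of 1.53. In whole buds, more cells of a type and more RNA per cell cannot be told apart.

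Transcription factors of endothelium differed less than surface genes. Of 16, 15 differences were above 0, the median was 0.24, and Erg, an ETS factor of vessels, was the member called higher, at 6.18 and 6.11 against 5.55 and 5.41 (0.67). Fli1, a relative of Erg, differed by 0.52 and the SoxF factors Sox17, Sox18 and Sox7 by 0.40, 0.35 and 0.27. Of 13 tip cell genes, which mark the leading cells of vessel sprouts, 3 were higher and the median was 0.15. Esm1, a secreted proteoglycan, stood at 5.53 and 5.35 on the VEGF arrays and at 3.68 and 3.70 on the control arrays (1.75). The control values lie under the array medians, at the dim end of the scale, where a difference can be understated. Pdgfb, with which sprouts recruit mural cells, read 6.99 and 6.94 against 6.19 and 6.02 (0.86), and the netrin receptor Unc5b 7.59 and 7.38 against 6.92 and 6.85 (0.60), a call lost without the first VEGF array (0.49) or the second control array (0.56). The tip cell list was mixed: the Notch ligand Dll4 differed by 0.14, Cxcr4 by 0.15, Angpt2 by 0.06 and Apln by 0.05. Mural cells, which wrap vessels, showed 1 of 14 genes higher (Mcam, 0.59) and 1 lower (Anpep, -0.77), with a median of 0.05. Mcam missed the threshold without the first VEGF array (0.55) or the second control array (0.56). The contractile genes Tagln (0.58) and Acta2 (0.57) lay just under the threshold, whereas the pericyte genes Rgs5 (-0.04), Abcc9 (-0.04) and Pdgfrb (0.19) lay near 0. Vessel tone and sphingosine genes had 0 of 24 members called, near the share over all genes, and a median of 0.12. Among them the endothelial nitric oxide synthase Nos3 differed by 0.43 and the sphingosine receptor S1pr1 by 0.43.

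Red cell genes had the highest median of any list. Of 15 measured members, 9 were called higher and none lower, and the median was 0.77. The embryonic globin Hbb-bh1 stood at 7.46 on both VEGF arrays and at 5.72 and 5.76 on the control arrays, a 3.29-fold difference. Slc4a1, the anion exchanger of the red cell membrane, read 8.21 and 8.14 against 6.79 and 6.83 (1.37), and Alas2, which starts haem synthesis in red cells, 7.51 and 7.52 against 6.52 and 6.48 (1.01). Rhag, a blood group membrane protein whose promoter is shown above, read 4.50 and 4.41 against 3.33 and 3.32 (1.13). The arrays were tightly separated in each of these genes. The brightest globins differed less: Hba-x stood at 11.07 and 11.02 against 10.13 and 10.10 (0.93), and Hbb-y at 12.45 and 12.44 against 12.09 and 12.05 (0.38, not called). Globin genes are close copies of each other, so a probe set can read more than its own gene. The transcription factors Gata1 (0.29) and Klf1 (0.24), dim in both pools, were not called, and neither was the transferrin receptor Tfrc (-0.11).

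Platelet and megakaryocyte genes were higher too, with 5 of 15 called, none lower and a median of 0.41. Ppbp read 7.28 and 6.85 against 4.62 and 4.58 (2.47), the largest increase of any gene named. Itgb3 and Itga2b, the chains of the platelet fibrinogen receptor, differed by 0.87 and 0.65, the platelet tubulin Tubb1 by 0.74 and the glycoprotein Gp9 by 0.78. Pf4, a chemokine of the same granules as Ppbp, differed by 0.41 and was not called. No member was called among 20 macrophage and leukocyte genes, near the background share, with 13 differences above 0, 7 members below 5 in both pools and a median of 0.05. Coro1a, an actin-binding protein of leukocytes, differed by 0.53, Cd68 by 0.25 and Laptm5 by 0.25, while the pan-leukocyte gene Ptprc differed by 0.08, the macrophage receptors Csf1r and Adgre1 by -0.22 and -0.07. The summed linear signal of Hbb-bh1, Hbb-y, Hba-x and Alas2 was 8110 and 8011 against 5609 and 5471, that of Ppbp, Pf4 and Itga2b 233 and 193.5 against 81.2 and 75.4, and that of Ptprc, Adgre1 and Csf1r 273 and 262 against 301 and 298. Car2, the carbonic anhydrase of red cells and ducts alike, stood at 7.05 and 6.85 against 5.73 and 5.43 (1.37), and is in the duct list too. That list had 1 of 17 higher, Car2, and 3 lower, Muc1, Onecut1 and Atp1b1 (-0.66), with 13 of 17 differences below 0 and a median of -0.14.

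Genes of plasma proteins split. Alb, albumin, stood at 7.14 and 7.05 on the VEGF arrays and at 4.80 and 4.65 on the control arrays (2.37), with Afp at 9.02 and 8.99 against 8.25 and 8.31 (0.72). Apoa1 (0.74) and Apoa2 (0.70) were higher as well. In the same list the retinol carrier Rbp4 (-1.23), the thyroxine carrier Ttr (-1.11) and Ambp (-0.81) were lower, which left 4 higher, 3 lower and a median of 0.03 over 25 genes, 14 of which were below 5 in both pools. Of the liver markers Alb, Afp, Apoa1 and Ahsg, 3 of 4 were higher, and their summed linear signal was 714 and 694.5 against 367 and 378. Ahsg, or fetuin, lay between 3.17 and 3.44 on all 4 arrays, at the dim end of the scale, as did the fibrinogen chains Fga (-0.02) and Fgg (0.06). Liver is the neighbour of the dorsal and ventral buds in the embryo and a blood-forming organ at this stage, and its part in the higher red cell and platelet genes was not tested.

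**Figure D3:**
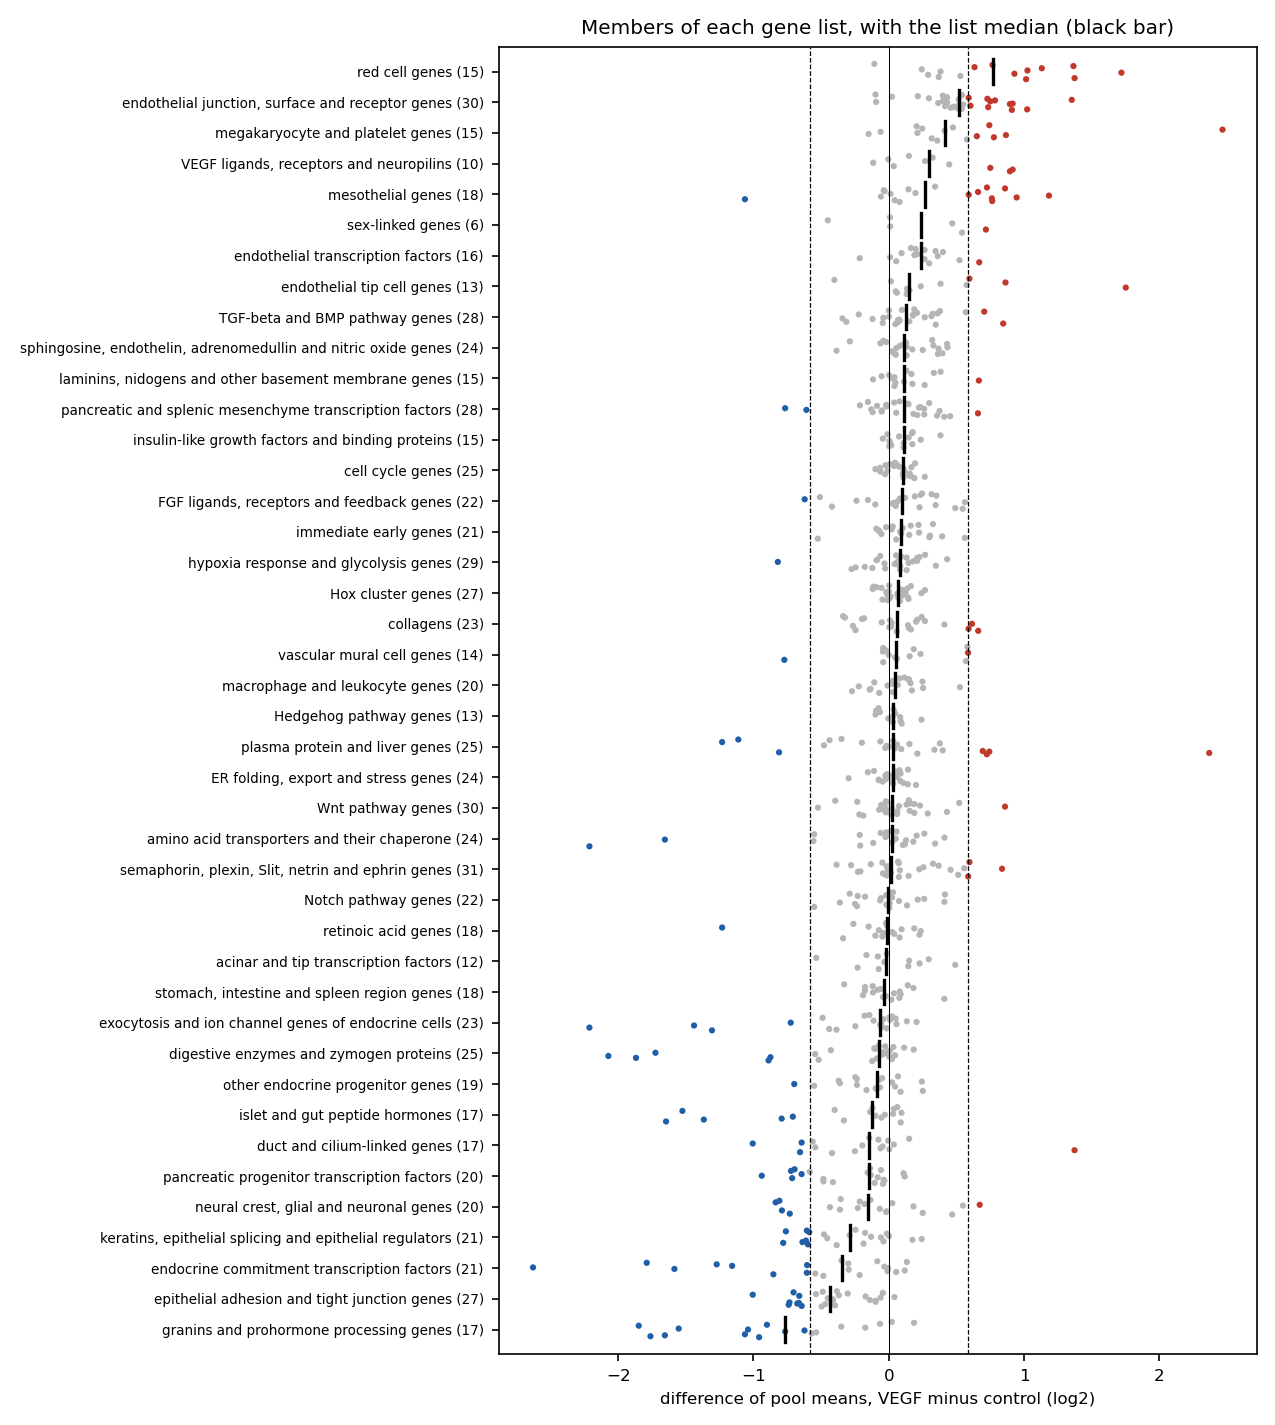
Difference between pool means (VEGF minus control, log2) for every measured member of the 42 gene lists, with the number measured in brackets; red and blue points are genes called higher and lower, grey points were not called, black bars are list medians and dashed lines mark 1.5-fold. Red cell genes have the highest median (0.77) and granins and prohormone processing genes the lowest (-0.76), and most other lists are centred near 0.

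Endocrine commitment starts with Neurog3, and 8 of 21 commitment factors were called lower and 0 higher, at a median of -0.35. Neurog3 stood at 4.64 and 4.27 on the VEGF arrays and at 7.03 and 7.14 on the control arrays (-2.63). Rfx6, a winged-helix factor of endocrine cells, read 3.53 and 3.50 against 5.28 and 5.32 (-1.79), and Neurod1, a direct target of Neurog3, 3.45 and 3.53 against 5.08 and 5.07 (-1.58). Both of these stood below 4 on the VEGF arrays and above 5 on the control arrays. Downstream factors were lower by less, with Pax6 at -1.27, Nkx2-2 at -1.16, Insm1 at -0.85, Irx2 at -0.60 (-0.44 and not called without the second control array) and Pax4, a factor of the beta and delta cell path, at -0.60, or -0.56 and not called without the first VEGF array. Isl1 was an exception, at 7.57 and 7.55 against 7.57 and 7.44 (0.06). Isl1 is also made by bud mesenchyme, and it is in the mesenchyme list too. Factors of other steps were closer to 0, such as Myt1 (-0.30), St18 (-0.35) and Mafa (-0.01), all dim in both pools. A wider list of endocrine progenitor genes had 1 of 19 called lower, Gadd45a (-0.70), and a median of -0.09, with the Notch ligand Dll1 at -0.55 and Hes6 at -0.36.

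Of the peptide hormones, 5 of 17 were lower and none higher, and 13 of the 17 were below 5 in both pools. Gcg, the glucagon gene, stood at 10.71 and 10.66 against 12.06 and 12.05, which is 2.58-fold lower. Pyy, a hormone of early islet and gut cells, read 8.66 and 8.56 against 10.13 and 10.14 (-1.52), and Cck, cholecystokinin, 4.12 and 4.15 against 5.83 and 5.73 (-1.65). Ghrelin, Ghrl, differed by -0.79, and its acylating enzyme Mboat4 by -0.76. The hormones of later cell types were at the dim end in both pools and differed little: Ins2 read 3.36 and 3.39 against 3.48 and 3.47, Sst 3.92 and 3.84 against 3.85 on both control arrays, and Ppy differed by -0.14. The hormone list's median of -0.12 is set by these dim members. Iapp, the amylin gene, was called at -0.71, at 3.97 and 3.90 against 4.90 and 4.39. Without the first control array its difference was -0.45 and the call was lost.

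The machinery that packs and cuts hormones was lower as a group, with 10 of 17 granins and prohormone processing genes called lower, none higher and a median of -0.76, the lowest of all lists. Chga, the granin whose promoter is shown above, stood at 5.89 and 5.84 against 7.60 and 7.66 (-1.76), Chgb at 4.37 and 4.17 against 5.89 and 5.96 (-1.65), and Scg3 at 4.20 and 4.00 against 6.03 and 5.87 (-1.85). The granule phosphatases Ptprn2 and Ptprn differed by -1.55 and -1.04, the carboxypeptidase Cpe by -1.06, the prohormone convertase Pcsk1 by -0.77 and its inhibitor Pcsk1n by -0.62, or -0.57 and not called without the first VEGF array. The amine transporter Slc18a2 (0.19) and Vgf (0.02) went with neither. Exocytosis and ion channel genes, 23 in all, had 4 members lower, 0 higher and a median of -0.06: Cltrn, also called collectrin, at 6.68 and 6.57 against 8.86 and 8.81 (-2.21), the potassium channel Kcnk16 at 6.44 and 6.43 against 7.84 and 7.91 (-1.44), the sulfonylurea receptor Abcc8 (-1.31) and Rph3al (-0.72). Its partner channel Kcnj11 differed by -0.25. Neuronal exocytosis genes such as Snap25 (0.01), Syt1 (0.05) and Stx1a (-0.04) lay near 0. Pou3f4, a POU factor of early alpha cells, read 4.40 and 4.31 against 5.71 and 6.01 (-1.50).

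Digestive enzyme genes, the mark of acinar cells, had 5 of 25 members lower and none higher, with 18 of 25 below 5 in both pools. Cpa1, a carboxypeptidase that also marks early tip progenitors, stood at 10.90 and 10.83 against 11.74 on both control arrays (-0.87). Ctrb1, chymotrypsinogen, read 6.17 and 6.14 against 8.25 and 8.20 (-2.07), Clps, the colipase, 5.80 and 5.62 against 7.57 and 7.58 (-1.87), and Pnliprp1, a lipase relative, 7.32 and 7.21 against 8.97 and 9.01 (-1.72). Cel, a lipase activated by bile salts, differed by -0.89. The enzymes of later acini were dim in both pools and near 0, for instance Cpb1 (0.00), Ctrc (0.05), Cela2a (0.02) and Rnase1 (0.18). None of 12 acinar and tip transcription factors was called, near the share over all genes, and their median was -0.02. Nr5a2 differed by -0.54, while Ptf1a, which defines the pancreas and acini, read 3.84 and 3.92 against 3.99 and 3.93 (-0.08).

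Progenitor transcription factors had 5 of 20 members lower, none higher, and a median of -0.15, with 18 of 20 differences below 0 and 9 of 20 members below 5 in both pools. Over the members at 5 or above in 1 or both pools the median was -0.58. Since a gene can pass that filter through its brighter pool alone, this median supports nothing by itself. Nkx6-1, a factor of trunk progenitors and later beta cells, read 6.88 and 6.56 against 7.67 and 7.65 (-0.94), and Sox9, the progenitor and duct factor, 8.31 and 8.20 against 8.94 and 8.96 (-0.70). Prox1 (-0.72), Hnf4a (-0.71) and Onecut1 (-0.64) were lower as well, and Gata4 (-0.03) and Gata6 (-0.04) were not. The call of Hnf4a was lost without the second VEGF array (-0.55) or the second control array (-0.56). The labelled tissue can be read from these genes: Pdx1, Sox9, Nkx6-1, Cpa1 and Gcg stood between 6.26 and 12.06 on all arrays, whereas Ptf1a and Ins2 stayed below 4. The stomach and intestine markers Sox2 and Cdx2 were between 3.21 and 3.41 on every array. In contrast, the stomach mesenchyme factor Barx1 stood at 8.53 or above on every array. The spleen mesenchyme markers Tlx1 and Nkx2-5 stood at 7.19 or above and at 5.93 or above. Whether the pools held some stomach or spleen tissue was not tested. Of genes of stomach, intestine and spleen, 0 of 18 were called, near the share over all genes.

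General epithelial genes were lower by smaller and more even amounts. Among 27 adhesion and tight junction genes 8 were called lower and 0 higher, 26 differences were below 0, and the median was -0.43. Cdh1, E-cadherin, stood at 8.81 and 8.84 against 9.53 and 9.41 (-0.64), Cldn6, a claudin of embryonic epithelia, at 9.63 on both VEGF arrays against 10.30 and 10.29 (-0.66), and the mucin Muc1 at 6.40 and 6.23 against 7.33 and 7.32 (2.01-fold lower). Epcam (-0.45), Krt8 (-0.48) and Krt18 (-0.45) had arrays that did not overlap and were not called. Among 21 keratins, splicing factors and epithelial regulators 7 were called lower and 0 higher, at a median of -0.29, including the epithelial splicing factors Esrp1 (-0.78) and Esrp2 (-0.64) and the protease inhibitor Spint1 (-0.76). The summed linear signal of Cdh1, Epcam, Krt8 and Krt18 was 1942 and 1848 on the VEGF arrays against 2699.8 on the first control array and 2700.0 on its repeat, a ratio of 0.702. The corresponding ratio was 0.609 for Pdx1, Sox9, Ptf1a and Nkx6-1, 0.378 for Neurog3, Neurod1, Chga, Gcg and Ins2, and 0.523 for Cpa1, Ctrb1 and Ptf1a. Linear sums mostly follow the brightest member, in these panels Sox9, Gcg and Cpa1, which differed by -0.70, -1.37 and -0.87.

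Endocrine and epithelial genes were thus lower in the same pool, and their sizes can be set side by side. Across both epithelial lists, 48 genes, the median was -0.41 and no member lay below Muc1. Below that value lay 5 of 21 commitment factors, 6 of 17 granins and processing genes, 3 of 17 hormones, 3 of 23 exocytosis genes and 3 of 25 digestive enzymes, but 0 of 20 progenitor factors. The granin median lay 0.35 below the epithelial median, while the other medians lay above it, by 0.07 for commitment factors, 0.29 for hormones, 0.35 for exocytosis genes, 0.34 for digestive enzymes and 0.27 for progenitor factors. Only some endocrine members were thus lower than every epithelial gene, and among list medians only that of granins lay below the epithelial median. Members below 5 in both pools, where a difference can be understated, pull medians toward 0. They were 13 of 17 hormones, 18 of 25 digestive enzymes, 12 of 23 exocytosis genes and 9 of 21 commitment factors. In the epithelial lists they were 4 of 27 adhesion genes and 10 of 21 keratins and regulators. How much of the lower endocrine and enzyme genes belongs to a lower share of epithelium in the VEGF pool was not tested.

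Amino acid transport stood out in a pair of genes. Slc38a5, a glutamine transporter of the developing pancreas, read 9.72 and 9.63 against 11.34 and 11.31 (-1.65), and Cltrn, already given among exocytosis genes, is the chaperone of other amino acid transporters. These were the 2 of 24 members called, and the list's median was 0.02. The related Slc38a1 (0.03), Slc38a2 (0.18) and Slc38a4 (0.13) were near 0, and Slc38a3 differed by -0.56.

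The surface of the organ is covered by mesothelium, and 8 of 18 mesothelial genes were higher and 1 lower, with a median of 0.27. Lhx9, a LIM factor of this layer, stood at 6.08 and 6.10 against 5.01 and 4.79 (1.18), the uroplakins Upk3b at 7.93 and 7.88 against 7.18 on both control arrays (0.73) and Upk1b at 6.78 and 6.79 against 5.86 and 5.99 (0.86), and the basonuclin Bnc1 at 7.51 and 7.44 against 6.67 and 6.75 (0.76). Wt1, the best known factor of the layer, differed by 0.34 and was not called. The lower member was Cpe, which is also a granule enzyme. Over Wt1, Upk3b and Lrrn4 the summed linear signal was 617.5 and 609 against 431 and 434, a ratio of 1.42.

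Mesenchyme as a whole differed little. Col1a1, Col3a1, Pdgfra and Vim, its markers, summed to 9534 and 9575 against 9125 and 9102, a ratio of 1.05, and none was called. The mesenchymal transcription factors, 28 in all, had a median of 0.11, with Hlx (0.66) called higher and with Osr1 (-0.61) and Prrx1 (-0.77) called lower. Single arrays decided some of these: Hlx was at 0.58 without the second control array, and Osr1 at -0.53 without the first control array and -0.55 without the first VEGF array. The spleen factor Tlx1 differed by 0.14, the stomach mesenchyme factor Barx1 by 0.41 and Nkx2-5 by 0.38. None of 27 Hox genes was called, near the share over all genes (median 0.07). Of 23 collagens 3 were called higher, the basement membrane collagens Col4a2 (0.62) and Col15a1 (0.59) and the fibril-linked Col12a1 (0.66). All 3 calls were lost without the second control array, at 0.50, 0.53 and 0.56, and those of Col15a1 and Col12a1 also without the first VEGF array, at 0.58 each. Of 15 laminins and related genes 1 was called, Lama4, the laminin chain of vessel walls, at 8.54 and 8.45 against 7.88 and 7.78 (0.67), while Col4a1, the partner chain of Col4a2, differed by 0.41. The fibrillar Col1a1 and Col1a2 differed by 0.00 and 0.02. Has2, which makes the matrix sugar hyaluronan, was lower, at 6.75 and 6.76 against 7.66 and 7.69 (-0.92), and the matrix glycoprotein Tnc was higher, at 6.13 and 5.84 against 5.04 and 5.08 (0.93).

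Among the signalling lists at most 3 members were called, beside 0.552% of all genes called higher and 0.933% called lower. In the TGF-beta and BMP list Bmp4, a ligand, stood at 7.13 and 7.07 against 6.37 and 6.14 (0.85) and Tgfb2 at 7.10 and 7.06 against 6.38 and 6.37 (0.71), which were 2 of 28, with 22 of 28 differences above 0 and a median of 0.12. Their targets Id1 (0.27), Id3 (0.32), Smad6 (0.36) and Smad7 (0.21) were not called. Rspo3, an enhancer of Wnt signalling, was the 1 of 30 Wnt genes called, at 6.13 and 6.34 against 5.47 and 5.27 (0.86), and Axin2, a target, differed by -0.19. Among 31 guidance genes the receptor Robo2 stood at 6.73 and 6.75 against 5.97 and 5.83 (0.84), and Efna1 (0.59) and Unc5b (0.60) were the others called. Efna1 missed the threshold without the first VEGF array (0.50) or the second control array (0.53). Of 22 FGF genes 1 was lower, the epithelial receptor Fgfr4 (-0.62, or -0.58 and not called without the first control array), while the ligand Fgf9 (0.56) and the feedback phosphatase Dusp6 (0.55) lay just under the threshold. No member was called among 22 Notch genes (median -0.01), where the vascular Notch4 (0.42) and Hey1 (0.41) stood opposite Dll1 (-0.55) and Hes1 (-0.25). None was called either among 13 Hedgehog genes (0.03), 15 insulin-like growth factor genes (0.11), 25 cell cycle genes (0.11), 24 ER folding genes (0.03) and 21 immediate early genes (0.09). The lists with no call, Notch among them, are near the share over all genes. The proliferation marker Mki67 differed by 0.06. Of 29 hypoxia and glycolysis genes 1 was lower, Ndrg1 (-0.82), with Slc2a1 at 0.23 and Car9 at -0.24. Of 18 retinoic acid genes Rbp4 alone was called.

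Neural genes went both ways. Of 20, the receptor Ret (-0.84), Stmn2 (-0.81), Erbb3 (-0.79) and Dcx (-0.73) were lower and the neurofilament Nefm (0.67) higher, and the median was -0.16. Nefm was at 0.56 without the second control array and then not called. Ret and Erbb3 are known from the enteric crest, and Dcx and Stmn2 are made by endocrine progenitors as well as by neurons, so the list does not read nerve alone. Erbb3 stood at 7.36 and 7.32 against 8.16 and 8.10, far above the crest and glial gene Sox10. Which cells the signal of Ret and Erbb3 comes from was not tested. Sox10, the glial factor, differed by -0.21 at levels between 3.66 and 3.98 on all arrays. Of 6 sex-linked genes the Y-linked Kdm5d was higher (6.11 and 5.78 against 5.19 and 5.25, a difference of 0.72, or 0.55 and not called without the first VEGF array), Eif2s3y (0.54) and Uty (0.47) were not called, and Xist, made from the inactive X, read 9.35 and 9.30 against 9.80 and 9.75 (-0.45). The makeup of each pool by sex is not in the labels, and its part in other differences was not tested.

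The explants give a second comparison to set beside that of the buds, though with 1 pool a group no test between them can be made. The explants share no array with the buds. The pool labelled VEGFR2i had 363 genes (1.82%) higher and 74 (0.371%) lower than the pool labelled vehicle, and the higher genes include 25 of 30 endothelial surface genes, which goes against the label of a VEGF receptor inhibitor, so directions are given as labelled. Of the 110 genes higher in the VEGF buds, 0 were lower in the pool labelled VEGFR2i, near the 0.371% of all genes. Also higher there were 41, which is 37.3% of the bud genes and 11.3% of the explant genes. These included 14 of 15 endothelial genes, whose median was 0.79 in buds and 1.68 in explants. The remaining one was Oit3, which was dim in both explant pools (3.30 and 3.29), so no difference could be seen there. The same holds for most of the 14 red cell and platelet genes: 12 were below 5 in both explant pools, for example Ppbp at 3.00 and 2.96, so they give no comparison. Of the other 2, Hba-x was higher in the pool labelled VEGFR2i, at 6.77 against 5.15, and Itgb3 was not called. Hbb-y, not called in the buds, was also higher in that pool, at 9.96 against 7.74. Of 8 mesothelial genes, 1 of them dim in both explant pools, 0 were higher in explants, with medians of 0.76 and 0.10. That count is near the 1.82% of all genes and is no result about these genes.

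Most genes lower in the VEGF buds were not called in the explants. Of 186, 7 were lower there (3.76% of the bud genes and 9.46% of the explant genes), beside 0.371% of all genes. Another 4 were higher (2.15% of the bud genes), near the 1.82% of all genes. The medians of the 186 were -0.76 in buds and -0.14 in explants. None of 27 endocrine genes was called in the explants, where 0 were below 5 in both pools (medians -1.27 and -0.08). Nor was any of 15 epithelial genes (-0.66 and -0.24). Beside the 1.82% of all genes higher and 0.371% lower in explants, these counts of 0 are near the share over all genes. They are thus no result about these genes. Of 5 digestive enzymes 1 was called, Clps (-1.87 and -0.91). The other 6 lower in both were Aldh1b1, a dehydrogenase of progenitors (-0.81 and -0.76), the cholecystokinin receptor Cckar (-0.75 and -0.65), and Ugt2b34 (-0.77 and -0.82), Mat1a (-0.75 and -0.81), Niban1 (-0.72 and -0.61) and Cbs (-0.60 and -0.62), of which Mat1a and Cbs are enzymes of methionine metabolism. Mat1a rests on the first control array: without it the bud difference was -0.42. Cbs was at -0.49 without the first VEGF array. In the opposite direction stood Has2, lower in buds by -0.92 and higher in the pool labelled VEGFR2i by 0.96.

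**Figure D4:**
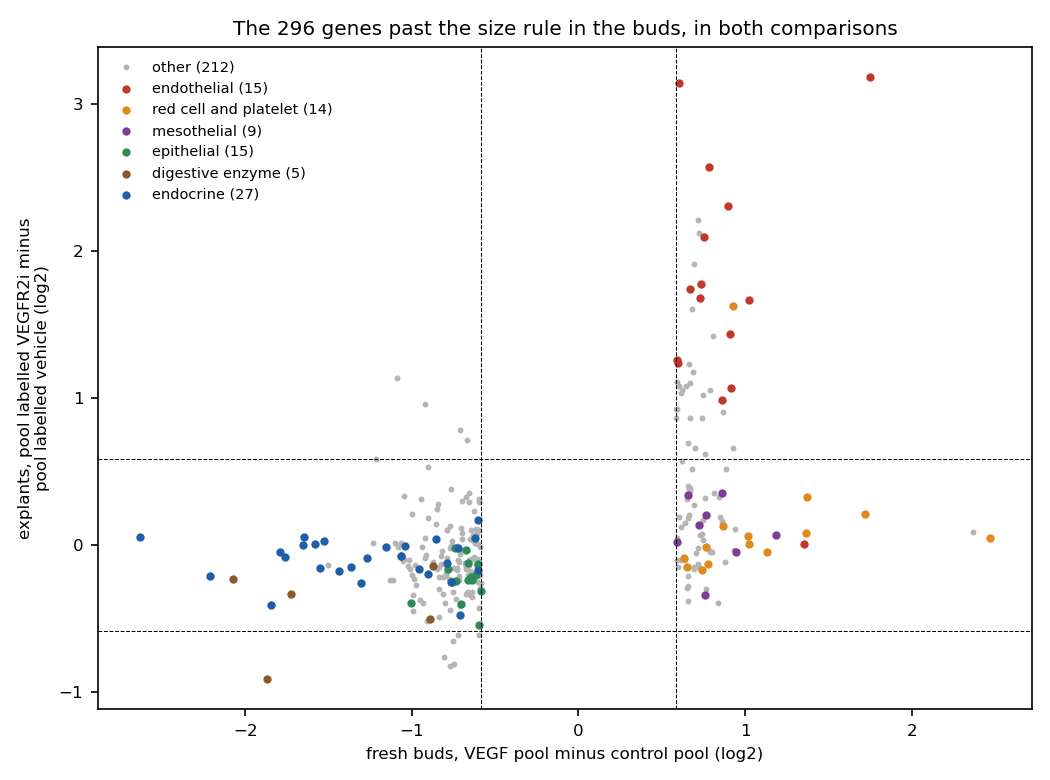
Difference in fresh buds (VEGF minus control pool, log2, horizontal) against difference in explants (pool labelled VEGFR2i minus pool labelled vehicle, log2, vertical) for the 296 genes called in the buds, with colours for gene families and dashed lines at 1.5-fold. Of the 15 endothelial genes, 14 lie above the upper dashed line. The 27 endocrine genes lie between the lines for the explants, which is near the share over all genes (1.82% higher and 0.371% lower there). So do 13 of the 14 red cell and platelet genes, 12 of which were dim in both explant pools.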

How the data were processed

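RNA was extracted with a micro-scale column kit, pooled, labelled from 300 ng of total RNA and read on Affymetrix gene arrays for mouse (version 1.0 ST), per the labels' protocols. The authors deposited log2 levels. Per the submitters' processing notes and the design text these come from RMA, run in Partek Genomic Suite (6.5). Whether buds and explants were normalized together is not stated there. RMA pulls the arrays to a shared distribution, so it measures levels relative to the other genes.

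Of 35399 probe sets, 21789 had 1 gene symbol in the platform annotation, 1621 had several and 11989 were not listed there. Of the first, 21698 matched RefSeq GRCm38.p6 by Entrez ID and no symbol changed. The probe set with the highest mean on the bud arrays stood for each of 999 genes with several. No filter on low levels was applied. The 2 arrays of a pool were averaged. Array medians lay between 4.08 and 4.12, and the number of arrays limits the precision. With 1 pool a group there was no test, and the size rule was used in its place. The rule was checked on simulated arrays whose noise came from the repeats of each pool. That check holds no spread between embryos or pools, so it gives no error rate for differences between pools. Marker sums are of 2 raised to the log2 level, so the brightest member weighs most. Python 3.11.15, pandas 2.3.3, scipy 1.17.1, R 4.3.3 and limma 3.58.1 were used.

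Comparisons, 42 lists (868 genes, 52 of them without a singly named probe set and not analysed here) and motifs were chosen with earlier results of these data known. Named genes were Vegfa, Kdr and Pdx1, the 15 largest increases and 15 largest decreases past the size rule (predicted genes, odorant and pheromone receptors and RNA-only symbols left out), and, per list, key members, up to 5 with the largest difference and 2 with the highest level. To these came up to 6 genes for each pair of directions called in both buds and explants and up to 4 whose probe sets differ most. Some other genes were named after their values were seen. The alternatives were a 2-fold threshold, a level filter at 5, the mean of a gene's probe sets, centring, quantile normalization, each array left out, all probe sets, limma and the methods' t-test over arrays.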

Additional observations from a re-analysis of the deposited data

Results flagged for a closer look

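Signal outside the genes described came from probe sets that the platform annotation does not list. Of 11989 such probe sets, 57 were higher and 155 lower in the VEGF pool by the size rule. Among the 19938 genes described, 110 (0.552%) were higher and 186 (0.933%) lower. As a share, the unnamed probe sets called higher were a little below that of genes, and those called lower were above it. Probe sets are counted singly here and genes once each, so the shares are not alike in kind. No result is drawn about unnamed probe sets as a group. The unnamed probe set 10375121 stood at 8.59 and 8.61 on the VEGF arrays and at 6.61 and 6.51 on the control arrays, a difference of 2.04. The unnamed probe set 10375123 differed by 2.02, with 8.54 and 8.58 against 6.62 and 6.47. The largest differences in the other direction were at 10476633, with 5.04 and 5.02 against 7.69 and 7.54 (-2.59), and 10537014, with 8.82 and 8.69 against 10.20 and 10.13 (-1.41). The first pair were picked out because they lie outside the main measurement and above the control pool, and no gene can be given for them here. Neither pool had more than 2 arrays, so no search for single stray arrays was made.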

How the results depend on the processing

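At a 2-fold threshold 12 genes were higher and 38 lower in the VEGF pool, in place of 110 and 186, and with every pair of arrays at least 1.5-fold apart, an alternative chosen after seeing the data, 70 and 120 were. Counting all probe sets, unnamed ones too, gave 168 and 354. The methods' t-test over arrays with 1.5-fold gave 103 and 168 at an unadjusted p under 0.05, but 0 and 0 after Benjamini-Hochberg adjustment, while limma gave 108 and 177 on the 4 bud arrays and 108 and 186 on all 8 arrays at an adjusted p under 0.05; these tests see hybridization error only. Leaving out 1 array gave 101 to 144 higher and 180 to 210 lower genes. Centring each array gave 125 and 164, quantile normalization 117 and 171, the mean of probe sets 111 and 187 and the level filter 99 and 162. The median over all genes stayed within 0.03 of 0 under these scalings. Of 118 named genes that were called, all kept their sign under the 7 alternatives run on single genes. Where 1 array is left out, the size rule fixes the sign in advance, so that gives no support. The call was kept by 97 of them under all 7. The 21 others lost it under 1 or more. Without the first VEGF array these were Col12a1, Col15a1, Efna1, Kdm5d, Lrrn4 (0.48), Mcam, Osr1, Pax4, Spint2 and Unc5b, and without the second Grhl2 (-0.57), Hnf4a and Prss8. Without the first control array they were Fgfr4, Iapp, Lrrn4, Mat1a, Osr1 and Spint2, and without the second Col12a1, Col15a1, Col4a2, Efna1, Hlx, Hnf4a, Mcam, Nefm, Ngp (-0.56), Prss8 (-0.57) and Unc5b. Shank2 lost it with the mean of its probe sets (-0.51), Pax4 and Spint2 (-0.58) by centring, and Pax4 and Mcam by quantile normalization. The sign of the median changed in 5 of 42 lists, all with small medians: acinar and tip factors, plasma proteins, retinoic acid, Notch and the list of stomach, intestine and spleen. A filter at a level of 5 in 1 or both pools keeps dim genes out and moved many medians: hormones from -0.12 to -1.45, digestive enzymes from -0.07 to -0.89, exocytosis genes from -0.06 to -0.44, progenitor factors from -0.15 to -0.58, commitment factors from -0.35 to -0.73, keratins and regulators from -0.29 to -0.59, mesothelial genes from 0.27 to 0.59 and plasma proteins from 0.03 to -0.35. Since a gene can pass through its brighter pool alone, these filtered medians support nothing by themselves. No paired analysis was possible because each group is 1 pool, whose first array and repeat are the same RNA. Dim genes limit what can be seen: a gene near the floor of the scale in both pools may hide a change.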

Other observations

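Genes in no list made up 56 of the 110 higher and 119 of the 186 lower genes, and the examples here were chosen after their values were seen. Several higher ones are known from vessel walls or blood cells. Gimap6, a small GTPase of endothelium and lymphocytes, stood at 6.96 and 6.88 against 6.21 and 6.18 (0.73), and its neighbour in the family Gimap4 at 8.55 and 8.35 against 7.80 and 7.67 (0.72). Both were also higher in the explant pool labelled VEGFR2i, by 2.12 and 2.21. Klhl4 (0.81 in buds, 1.42 in explants), the protocadherin Pcdh17 (0.79 and 1.06), Tmem204 (0.68 and 1.61) and Tmem255a (0.70 and 1.91) had the same directions in both. The glucose transporter Slc2a3 stood at 8.11 and 8.09 against 7.42 on both control arrays (0.68), and the lactate transporter Slc16a3 differed by 0.64. The kinase gene Pim1 differed by 0.85 and the sterol carrier Stard4 by 0.80, and neither was called in explants.

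Lower genes in no list were of several kinds. Gpr119, a lipid receptor of islet and gut endocrine cells, read 3.79 and 3.65 against 4.80 and 4.81 (-1.08), and Baiap3, a vesicle priming protein, 5.24 and 5.36 against 6.34 and 6.46 (-1.10). The active zone genes Rims2 (-0.80) and Rimbp2 (-0.75), the connexin Gjd2 of islet cells (-0.65) and the splicing factor Celf3 (-1.05) were lower too. So were plasma protein genes outside the lists, namely Apoc1 (-0.86), Agt (-0.85), Crp (-0.84) and Cpn1 (-0.73), in contrast to Alb and Afp, which were higher. The corticosteroid carrier Serpina6 stood at 10.46 and 10.40 against 11.12 and 11.17 (-0.71). The neutrophil granule genes Lcn2 (-0.90), Ltf (-0.66) and Ngp (-0.71) were lower and dim in both pools, with no array above 4.12, and the call of Ngp was lost without the second control array (-0.56).

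Of 302 microRNA gene symbols on the array, 0 were called. The array reads longer transcripts and was not made for mature microRNAs. Of 999 genes with several probe sets, 7 were called, and all 7 had the same sign on every probe set, although the call held on every probe set in 3. The probe sets of Shank2 ranged from -0.76 to -0.01.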
